A study of Homo sapiens with 4 samples.

Results

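Vault RNA genes are the class of 3 short genes, VTRNA1-1, VTRNA1-3 and VTRNA2-1, that carry the biotype vault RNA in a table of 16174 genes from H9 human embryonic stem cells. They were selected on that biotype and on no threshold of a measured value. The number of reads behind each value was recovered from its listed length and its TPM, a level per length that is scaled to 1 fixed sum within a library. The fourth vault RNA gene of the human annotation, VTRNA1-2, is shown by its reference sequence only, and its level is not analysed here. The class was singled out with its levels already known, so those levels are given as a description.

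Vault RNAs are short transcripts of RNA polymerase III, the polymerase that also makes tRNAs and Y RNAs. At tRNA and vault RNA genes, RNA polymerase III uses promoter elements inside the transcribed sequence, called box A and box B. It stops at a run of T. The VTRNA1 transcripts are bound by the vault, a large cytoplasmic particle built mostly of the major vault protein MVP, and VTRNA1-1 is known to bind the autophagy receptor p62. VTRNA2-1, also called nc886, is known as an inhibitor of the double-stranded RNA-activated kinase PKR and as an imprinted gene whose methylation differs between people. Transcripts of RNA polymerase III are in general not polyadenylated, whereas the libraries here were primed with oligo-dT.

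The series compares these cells with and without repression of SNHG26, a long non-coding RNA gene. H9, an established line of primed embryonic stem cells, was transfected with a doxycycline-inducible dCas9-BFP-KRAB vector (CRISPR interference, which represses a promoter without cutting it), a transposase and either 4 pooled guides against SNHG26 or control non-targeting guides, and was selected with puromycin. Doxycycline was given in both arms for 2 or 3 days, and amplified cDNA was read on a nanopore sequencer, with 1 library per arm and day. Every mean ± SD between arms therefore has n = 2 and spans both days, and the labels do not say that libraries came from separate cultures, so p-values measure only the spread between these libraries.

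The libraries held at most 947338 to 1220265 reads, the upper limit if each gene was read over its whole listed length. Of 9 listed markers of primed stem cells 8 had a value in all 4 libraries, POU5F1 at a mean of 1126 TPM, while ZIC2 was listed at 0. The summed markers of mesendoderm, and those of amnion and trophectoderm, stayed at or below 1.98 TPM in each library. NES, the 1 listed neuroectoderm marker, which stem cells also express, stood at 17.1 to 24.5 TPM, and the fibroblast markers COL1A1 and COL1A2 summed to 7.95 to 11.9 TPM. SNHG26 was listed at 0 and 0.933 TPM with its own guides on day 2 and day 3, and at 2.98 and 4.03 TPM with control guides. Its limma adjusted p was 0.935, so the knockdown itself did not pass the threshold of 0.05.

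The sequences are shown because the 3 genes differ widely in reads although they share their internal promoter letters. They were read from GENCODE release 29 (GRCh38), whose coordinates are identical to those in the deposited table for the 3 listed genes. Capitals mark box A, searched as TNGCNNA, and box B, searched as GTTCNANNC. The box A letters were shortened after a first search missed VTRNA2-1, so the match of that gene to box A follows from this choice.
VTRNA1-1: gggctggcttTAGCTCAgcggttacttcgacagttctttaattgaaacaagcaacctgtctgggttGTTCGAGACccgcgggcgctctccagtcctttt
VTRNA1-2: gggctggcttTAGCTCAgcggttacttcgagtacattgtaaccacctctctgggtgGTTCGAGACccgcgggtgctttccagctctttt
VTRNA1-3: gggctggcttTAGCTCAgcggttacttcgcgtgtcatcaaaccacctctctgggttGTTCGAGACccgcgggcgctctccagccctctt
VTRNA2-1: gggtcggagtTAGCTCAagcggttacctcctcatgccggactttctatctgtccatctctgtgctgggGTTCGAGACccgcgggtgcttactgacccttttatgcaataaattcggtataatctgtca

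Box A began at base 11 from the 5′ end in all 4 sequences. Box B lay 24 bases from the 3′ end in the VTRNA1 genes and 51 bases from it in VTRNA2-1. Among 5584 GENCODE transcripts of 80 to 150 bases, 25.1% held the box A letters, 4.28% the box B letters and 0.913% held both on the transcribed strand. Counting either strand, the shares were 46.2%, 5.19% and 1.13%. The box A letters also matched once on the opposite strand of VTRNA2-1. The 2 motifs did not overlap each other in these genes.

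The middle of the molecule and the 3′ end set the VTRNA1 genes apart from each other. Their first 29 bases were identical, and VTRNA1-3 shared 83% of aligned bases with VTRNA1-1 and 87.8% with VTRNA1-2. VTRNA2-1 shared 55.0% with VTRNA1-3. VTRNA1-1 and VTRNA1-2 ended in TTTT, a motif that 41.4% of the short transcripts held on the transcribed strand (64.1% on either strand). The listed VTRNA1-3 did not hold TTTT within its span. In VTRNA2-1 the TTTT ended 27 bases before the listed end, and AATAAA, the letters of the usual polyadenylation signal, ended 17 bases before it. AATAAA was in 4.05% of the short transcripts on the transcribed strand and in 7.66% on either strand, and in none of the VTRNA1 sequences.

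All 3 genes lie on chromosome 5. VTRNA1-1 spans 140711275 to 140711373 and VTRNA1-3 spans 140726158 to 140726246, both on the plus strand and 14784 bases apart. In RefSeq (GRCh38.p14) both fall inside the span of a long non-coding RNA gene, LOC105378198, which runs from 140711276 to 140758080 and has no separate value here. VTRNA2-1 spans 136080470 to 136080597 on the minus strand. RefSeq lists it at 108 bases, 20 fewer than the 128 used in the table, and its RefSeq span leaves out the last 21 bases at the 3′ end. The AATAAA of VTRNA2-1 therefore reaches past the RefSeq end. GENCODE release 29 also lists an overlapping gene on the minus strand, RF00006, from 136080497 to 136080597. That span ends with the TTTT and leaves out the AATAAA. Reads of near-identical copies can be assigned to either one, and whether counting used the strand is not given in the sources used here.

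VTRNA1-3 had most of the vault RNA reads in each library. It stood at 12615 TPM (154 reads) on day 2 and 9393 TPM (128 reads) on day 3 with the SNHG26 guides. With control guides it stood at 10018 TPM (111 reads) and 8150 TPM (108 reads). The exact Poisson 95% intervals, which cover counting error only, ran from 10701 to 14772, from 7837 to 11169, from 8242 to 12065 and from 6685 to 9840 TPM in the same order. The day 2 library with SNHG26 guides was the highest and the day 3 control library the lowest, and their intervals did not overlap. The intervals of the other two libraries overlapped both.

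By mean TPM, VTRNA1-3 ranked 15 of 16174 genes at 10044 ± 1882 TPM (SD over the 4 libraries), and it ranked from 12 to 19 within single libraries. TPM divides by a length, which places short genes above longer ones at equal reads. For VTRNA1-3 that length was the span from gene start to gene end. TPM times the gene span gave whole reads for 20.6% of all genes with a value. The length used for the rest is not known here. Among genes of at most 200 bases VTRNA1-3 ranked 1 in each library. The next gene was the small Cajal body RNA SCARNA22 every time. VTRNA1-3 was 8.01-fold and 4.86-fold above it on day 2 and day 3 with the SNHG26 guides, and 4.59-fold and 3.45-fold above it with control guides.

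**Figure D1:**
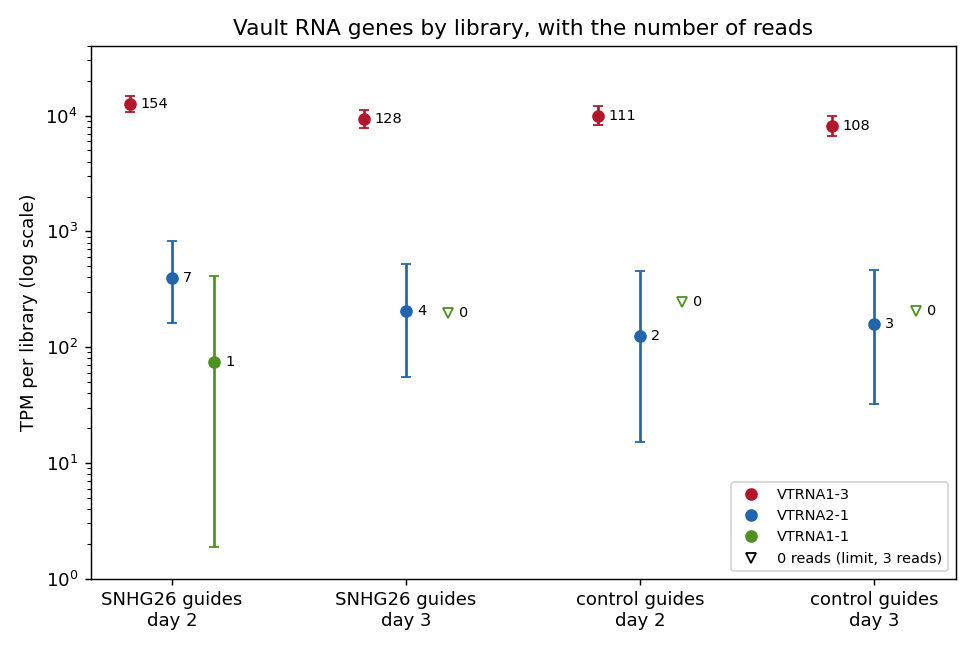
TPM of the vault RNA genes in each library on a log axis, with exact Poisson 95% intervals (counting error only) and the number of reads beside each point. Open triangles stand at the level of 3 reads where VTRNA1-1 had 0 reads. VTRNA1-3 lies between 8150 and 12615 TPM, and VTRNA2-1 between 126 and 399 TPM.

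VTRNA2-1 was read in every library, at low numbers. It stood at 399 TPM (7 reads) and 204 TPM (4 reads) with the SNHG26 guides on day 2 and day 3, and at 126 TPM (2 reads) and 157 TPM (3 reads) with control guides. Both libraries with SNHG26 guides lay above both control libraries, as they did for 16.1% of the genes tested between the arms. The Poisson intervals all overlapped, running from 160 to 821, from 55.6 to 522.6, from 15.2 to 453 and from 32.5 to 460 TPM.

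VTRNA1-1 was at the limit of detection. Its only value was 73.6 TPM, from 1 read, in the day 2 library with SNHG26 guides. It had 0 reads in the day 3 library with SNHG26 guides and in the day 2 and day 3 control libraries. There 3 reads would stand at 198, 243 and 204 TPM, in that order. The upper ends of the exact Poisson 95% intervals were higher, at 243, 299 and 250 TPM. VTRNA2-1 had more reads than VTRNA1-1 in each library. Over the 4 libraries it had 16 reads against 1, a ratio per base of 12.4 with a 95% counting interval of 1.92 to 519.

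The gap between VTRNA1-3 and the others was larger than counting error in each library. Per base, VTRNA1-3 was 31.6-fold (95% interval 15.0 to 80.02) and 46.0-fold (17.5 to 171) above VTRNA2-1 on day 2 and day 3 with the SNHG26 guides. With control guides it was 79.8-fold (21.6 to 667) and 51.8-fold (17.3 to 255) above it. Against the single read of VTRNA1-1 the ratio was 171 (30.3 to 6809.5). In the libraries without a VTRNA1-1 read, VTRNA1-3 was 47.5-fold, 41.2-fold and 40.04-fold above the level of 3 VTRNA1-1 reads per library. These ratios leave out the counting error of VTRNA1-3 and are not 95% limits. VTRNA1-3 thus held 95.1% to 98.2% of the vault RNA reads of a library.

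Vault RNAs were compared with other short non-coding RNAs because they share their size and, in part, their polymerase. The 130 listed genes of the small nucleolar, small Cajal body, small nuclear, miscellaneous, mitochondrial tRNA, ribozyme, microRNA and vault classes all came out as whole reads, 341 to 436 in a library. VTRNA1-3 alone took 38.8% (Wilson 95% interval 34.1 to 43.7) and 37.5% (32.6 to 42.8) of them with the SNHG26 guides. In the control libraries it took 31.0% (26.4 to 36.0) and 24.8% (21.0 to 29.03).

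Both libraries with SNHG26 guides thus had a higher VTRNA1-3 share than both control libraries, at 38.2% ± 0.887 against 27.9% ± 4.41 (SD, n = 2), a difference of 10.3 percentage points. The two-sided exact permutation p was 0.333, below which 2 libraries against 2 cannot go. No test of this share had been planned. The TPM of VTRNA1-3 itself overlapped between the arms, at 9393 on day 3 with the SNHG26 guides and 10018 on day 2 with control guides. Small nucleolar RNAs, which guide the modification of ribosomal RNA, are also in the total that the share divides by. They had 117 and 104 reads with the SNHG26 guides and 127 and 189 with control guides, and their part in the difference was not tested.

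**Figure D2:**
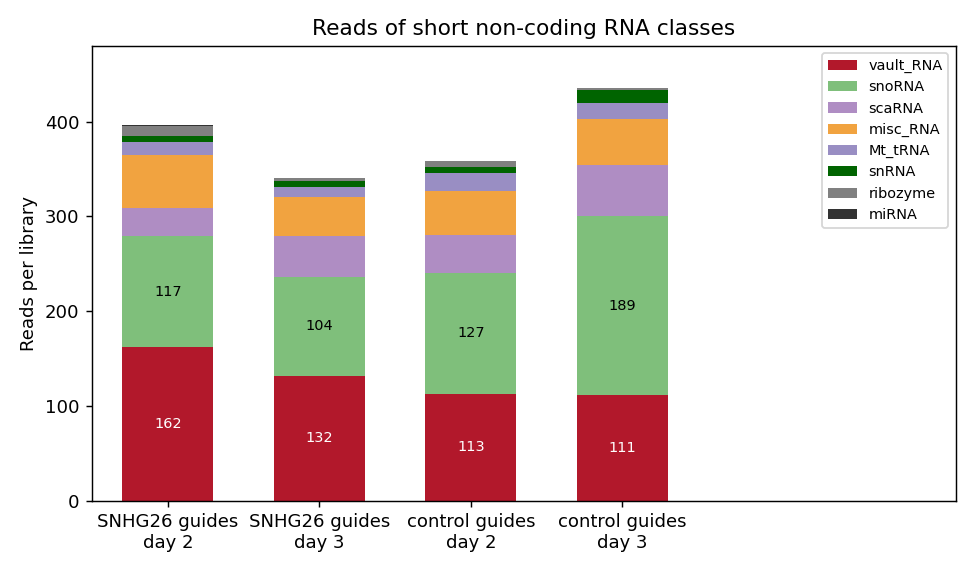
Reads of each class of short non-coding RNA in the 4 libraries, stacked from vault RNA at the bottom. Vault RNA had 162 and 132 reads with the SNHG26 guides and 113 and 111 with control guides, and small nucleolar RNA was highest, at 189 reads, in the day 3 control library.

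The Y RNAs are the closest match in size and polymerase. RNY1, which with RNY3 binds the autoantigen Ro60, had 14 and 13 reads with the SNHG26 guides and 10 and 14 reads with control guides. RNY3 had 10, 9, 9 and 10 reads in the same order. Their levels ran from 711 to 903 TPM for RNY1 and from 576 to 715 TPM for RNY3, and the arms overlapped for both. Per base, VTRNA1-3 was 14.0-fold (8.08 to 26.1) and 12.5-fold (7.06 to 24.1) above RNY1 with the SNHG26 guides, and 14.1-fold (7.38 to 30.2) and 9.79-fold (5.59 to 18.5) above it with control guides. RNY4 had 1 read in 3 libraries and 0 in the day 2 control library.

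**Figure D3:**
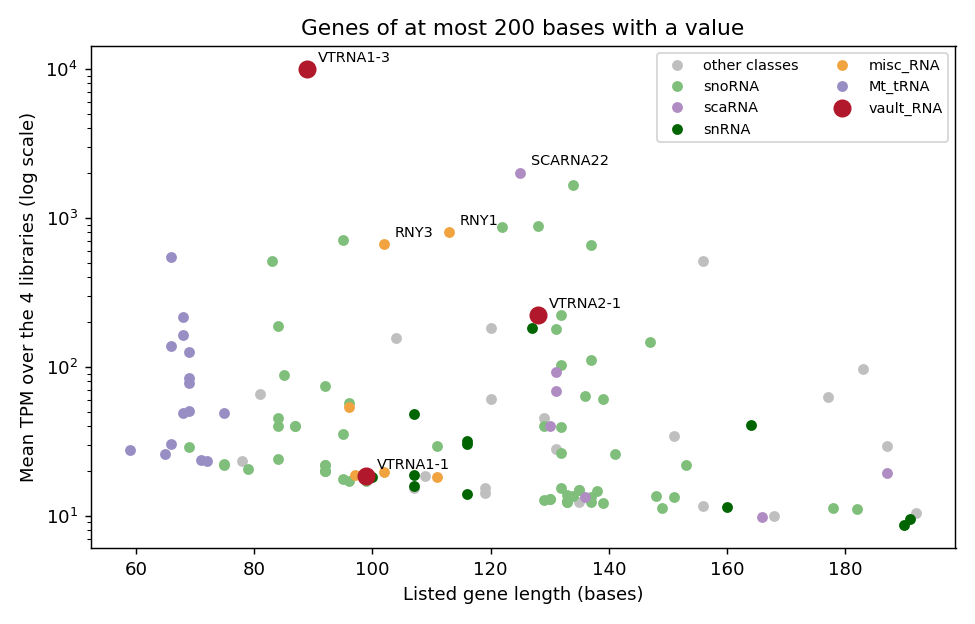
Mean TPM over the 4 libraries (log axis) against listed length for the 125 genes of at most 200 bases with a value, coloured by class. VTRNA1-3, at 10044 TPM, stands above SCARNA22 at 2014 TPM, and VTRNA2-1 lies at 221 TPM among small nucleolar RNAs. VTRNA1-1 lies at a mean of 18.4 TPM, from 1 read in 1 library.

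The guide comparison asked whether vault RNA levels moved with SNHG26 repression. VTRNA1-3 averaged 11004 ± 2278 TPM under the SNHG26 guides against 9084 ± 1321 TPM under control guides (SD, n = 2), and the arms overlapped, since the day 2 control library lay above the day 3 library with SNHG26 guides. Its mean change was 0.27 (SE 0.19) on the log2(TPM + 1) scale, made of 0.33 from the day 2 pair and 0.20 from the day 3 pair. In limma, among 8274 genes, this gave an adjusted p of 0.935 and an unadjusted p of 0.228, and the exact permutation p was 0.667. Between single libraries the ratio was 1.26 (95% counting interval 0.980 to 1.62) on day 2 and 1.15 (0.885 to 1.503) on day 3. Both intervals include 1 and hold no spread between libraries.

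VTRNA2-1 averaged 301 ± 138 TPM under the SNHG26 guides against 141 ± 22.6 TPM under control guides (SD, n = 2). Its mean log2 change was 1.02 (SE 0.39), from 1.66 in the day 2 pair and 0.37 in the day 3 pair. Limma gave an adjusted p of 0.935 and an unadjusted p of 0.0567. The exact permutation p was 0.333, the smallest possible. The ratio of the day 2 libraries, from 7 reads against 2, was 3.18 with a counting interval of 0.605 to 31.3, and that of the day 3 libraries was 1.30 (0.219 to 8.85).

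VTRNA1-1 differed between the arms by its single read, so no fold is given, and its limma adjusted p was 0.935. Of the 3 genes 0 passed in limma, against 0% of all genes tested, and 0 had an unadjusted p under 0.05, against 4.07% of all genes. All 3 were higher with the SNHG26 guides in the mean, and the median change of all genes was also above 0, at 0.041. For VTRNA1-1 this rested on 1 read, and for VTRNA2-1 on 11 reads against 5. For the difference between the days in the guide change, limma gave an adjusted p of 0.999 for VTRNA1-3. The limma adjusted p was 0.961 for VTRNA2-1 and VTRNA1-1, and 0.0967% of genes passed. That fit left arm and day out as terms, so the guide and day changes counted as its error. With 1 library per arm and day it cannot decide whether the guide change differed between the days. The change of VTRNA1-3 was 0.42 with voom on whole reads, whose total includes mitochondrial reads, and 0.19 with voom on nuclear genes.

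**Figure D4:**
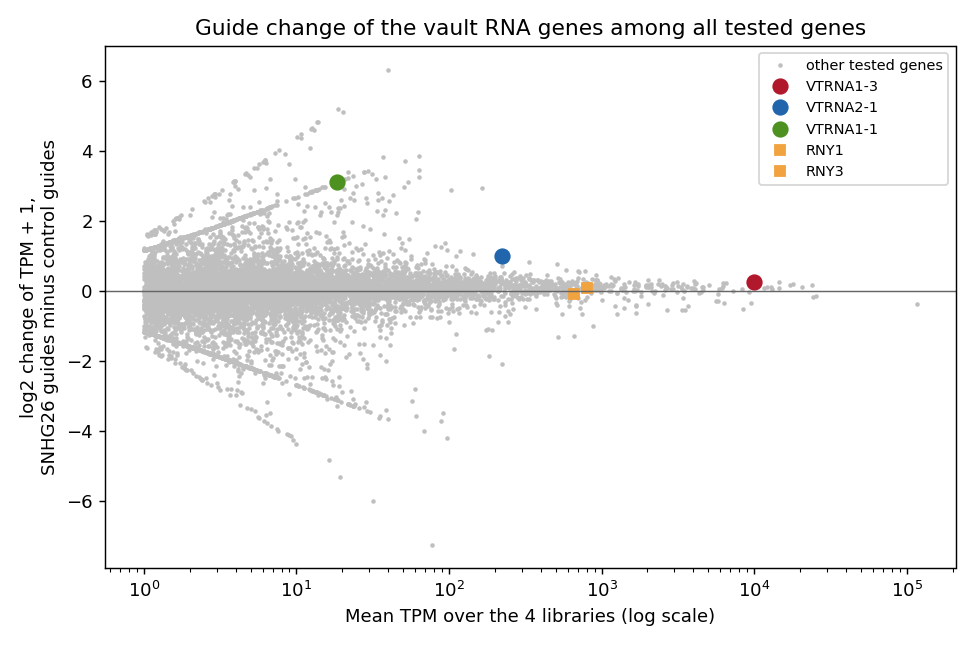
Change of log2(TPM + 1) between SNHG26 and control guides against mean TPM (log axis) for the 8274 tested genes in grey, with the vault RNA genes as large circles and RNY1 and RNY3 as squares. VTRNA1-3 lies at 0.27, VTRNA2-1 at 1.02 and VTRNA1-1 at 3.11, the last from 1 read.

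Mitochondrial genes made up 23.2% and 18.5% of the listed TPM with the SNHG26 guides and 25.7% and 25.9% with control guides, and TPM of every nuclear gene moves with that share. With TPM rescaled to the nuclear genes, VTRNA1-3 stood at 12584, 8863, 10312 and 8436 in the order used above, and the guide change was 0.18. Per 10000 reads of 2823 nuclear genes with whole reads, VTRNA1-3 had 49.8, 37.8, 41.3 and 34.8 reads. The order of the 4 libraries was the same on each of these scales.

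Day 3 was compared with day 2, the only other factor in the labels. VTRNA1-3 had 11317 ± 1836 TPM on day 2 and 8772 ± 879 TPM on day 3 (SD, n = 2), and both day 3 libraries lay below both day 2 libraries. The log2 change was -0.43 with the SNHG26 guides and -0.30 with control guides, with a mean of -0.36 (SE 0.15), a limma adjusted p of 0.760 (unadjusted 0.0766) and an exact permutation p of 0.333. In the same direction, 18.4% of the 8274 genes had days that did not overlap. Between the libraries with SNHG26 guides the day 3 to day 2 ratio was 0.745 (95% counting interval 0.584 to 0.948), and between the control libraries it was 0.813 (0.618 to 1.07). These intervals compare 1 library with 1 and hold no spread between libraries.

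VTRNA2-1 went from 7 to 4 reads between the days with the SNHG26 guides and from 2 to 3 reads with control guides. Its mean log2 change was -0.32 (SE 0.62), with a limma adjusted p of 0.910, and it turned to 0.51 without the day 2 library with SNHG26 guides. VTRNA1-1 had its single read on day 2. Of the 3 genes 0 passed between the days in limma, against 0.0363% of all genes tested, and 0 had an unadjusted p under 0.05, against 6.61%. With TPM rescaled to the nuclear genes the unadjusted p of VTRNA1-3 was 0.0259, with an adjusted p of 0.583.

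**Figure D5:**
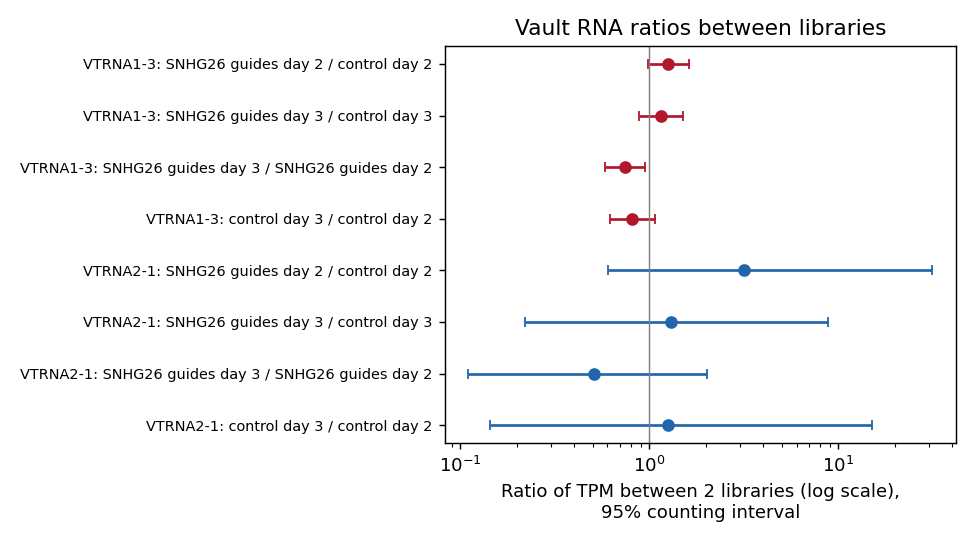
Ratios of TPM between single libraries on a log axis, with 95% counting intervals, for VTRNA1-3 (red) and VTRNA2-1 (blue). The interval of VTRNA1-3 between day 3 and day 2 with SNHG26 guides, 0.584 to 0.948, lies below 1, and the other 7 include 1.

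Transcripts of the vault particle's protein genes had low or no values. MVP, the gene of its main structural protein, was listed at 0 in all 4 libraries. BRF1, an initiation factor that RNA polymerase III needs at tRNA genes, was also listed at 0 in all 4, so a 0 here is not read as absence of the transcript. PARP4, the poly(ADP-ribose) polymerase of the vault, was listed at 1.11 and 0.924 TPM (14 and 13 reads) with the SNHG26 guides and at 0.700 and 0.804 TPM (8 and 11 reads) with control guides. TEP1, a protein shared by the vault and telomerase, had a value only in the day 3 library with SNHG26 guides, at 0.271 TPM.

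Transcripts for proteins that handle vault RNAs ranged widely in level. SSB encodes La, which binds the terminal U run of new RNA polymerase III transcripts, and stood at 85.3 and 80.2 TPM under the SNHG26 guides and at 90.4 and 79.9 TPM under control guides. NSUN2, a cytosine methyltransferase of tRNAs and vault RNAs, had 1.76, 1.77, 3.64 and 1.42 TPM in the same order. SQSTM1, which encodes p62, had 20.7, 20.4, 26.3 and 27.3 TPM, so both libraries with SNHG26 guides lay below both control libraries, as for 13.2% of all genes tested, with a log2 change of -0.36 (SE 0.25) and a limma adjusted p of 0.935. EIF2AK2, which encodes PKR, had 0.898, 0.451, 0.712 and 0.646 TPM, below the filter of a mean of 1 TPM. MVP, PARP4 and TEP1 were also below the filter and were not tested. Among all genes tested, 0% passed in limma between the guides and 0.0363% between the days. Of the 10 genes in this list 5 were tested, and 0 passed in either direction between the guides or the days. Their median log2 change was -0.038 between the guides and -0.081 between the days, against 0.041 and 0.0071 for all genes.

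RNA polymerase III genes, 35 subunits, initiation factors and regulators, had 31 tested members. Between the guides 0 passed, higher or lower, against 0% of all genes tested. The median log2 change was 0.075 against 0.041 for all genes. Between the days 0 passed, against 0.0363% of all genes tested, with a median of -0.010 against 0.0071. POLR3G, the subunit form enriched in stem cells, stood at 4.601 and 8.04 TPM under the SNHG26 guides and at 6.79 and 4.86 TPM under control guides. POLR3GL, its counterpart, was lower, at 1.03, 2.31, 1.15 and 1.90 TPM. MAF1, the repressor of RNA polymerase III, had 7.06 TPM on day 2 with the SNHG26 guides, 2.17 TPM on day 3 with control guides and was listed at 0 in the other libraries. BRF2, an initiation factor, had the highest change between the guides (1.34, SE 0.77) and GTF3C1, a subunit of the factor that binds box B, the lowest (-1.11, SE 0.85), each with a limma adjusted p of 0.935.

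Around the VTRNA1 genes, 6 listed genes lie within 50 kb, all at lower coordinates. The nearest, ZMAT2, a spliceosome component that ends 4589 bases before VTRNA1-1, stood at 42.4 and 55.0 TPM under the SNHG26 guides and at 45.3 and 45.4 TPM under control guides. IK, another splicing factor, had 21.0, 17.3, 18.1 and 17.2 TPM. The histidyl-tRNA synthetase genes HARS1 and HARS2 had means of 8.54 and 4.61 TPM, and WDR55, a ribosome biogenesis gene, one of 6.03 TPM. DND1, a germ-cell RNA-binding protein gene, had a value only in the day 3 library with SNHG26 guides, at 4.69 TPM. None of the 6 passed between the guides (limma adjusted p of at least 0.935), against 0% of all genes tested. Within 50 kb of VTRNA2-1 lie TGFBI, which had 0.419, 2.07, 0.461 and 0.386 TPM, and SMAD5-AS1, with 1.21 TPM in the day 3 library with SNHG26 guides and 0 in the others.

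The 3 genes whose pattern over the 4 libraries was most like that of VTRNA1-3, by Euclidean distance between centred log2(TPM + 1) values among 4377 genes, were ISG15 (distance 0.0482), TELO2 (0.0521) and TOMM34 (0.0759). ISG15, an interferon-induced ubiquitin-like protein, stood at 649 and 500.5 TPM under the SNHG26 guides and at 523 and 437 TPM under control guides. In all, 8 of these genes lay within a distance of 0.1 over the 4 libraries, and the likeness is a description.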

How the data were processed

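Poly(A)-primed cDNA of 4 libraries was amplified and sequenced by the authors, who deposited 1 table of gene-level TPM with a length per gene. The submitters' processing notes name minimap2 2.24-r1122 and GRCh38, and the counting tool and annotation release are not given in the sources used here. The unit of 1 read came from 13 mitochondrially encoded mRNAs, and TPM times length divided by it gave whole reads within 0.0001 for 100% of the 125 genes of at most 200 bases (20.6% of all 13840 genes with a value). Amplified reads without molecular identifiers are not independent molecules, so intervals cover counting error only. Tests used log2(TPM + 1) of the genes that reached 1 TPM on average, with limma 3.58.1 in R 4.3.3 (trend, Benjamini-Hochberg over 8274 genes, threshold 0.05). The scripts were tested on simulated data, where limma also called unchanged genes, nearly all of them with few reads, so the shares of genes that passed can hold such calls. Libraries of 1 day share a number across arms, and their deviations had a correlation of 0.0464 over 8274 genes. The day was a block only as an alternative, so the main guide test counts the day change of each gene as error. By the rule for named genes, all members, listed genes within 50 kb, preset genes of the vault and RNA polymerase III lists and the 3 most alike genes were named. Members and lists were chosen with earlier results of these data known. The box A search was shortened after it first missed VTRNA2-1. Sequences were compared with Biopython 1.88.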

Additional observations from a re-analysis of the deposited data

How the results depend on the processing

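The guide and day changes of VTRNA1-3 and the guide change of VTRNA2-1 kept their direction and did not pass in limma under every alternative run. With all 4 libraries the guide change of VTRNA1-3 ran from 0.18 to 0.42 and the day change from -0.40 to -0.25. Leaving out 1 library, where limma assumes that the lone library of an arm varies like the others, gave 0.056 to 0.48 for the guides and -0.53 to -0.20 for the days. The lowest guide change came without the day 2 library with SNHG26 guides and the highest without the day 3 one. The guide change of VTRNA2-1 ran from 0.53 to 1.497 and its day change from -1.15 to 0.51, turning without the day 2 library with SNHG26 guides. The difference of VTRNA1-3 between the days in its guide change turned to 0.071 with voom on whole reads. The replicate block left the guide changes at 0.27 and 1.02 and changed no call on a vault RNA gene (limma adjusted p 0.908 for both). With it the unadjusted limma p of VTRNA1-3 was 0.0210 between the guides and 0.00854 between the days (adjusted p 0.584). So 1 vault RNA gene, in place of 0, had an unadjusted p under 0.05 in each comparison. Of all 8274 genes tested, 359 between the guides and 482 between the days had an unadjusted limma p under 0.05 with the block.

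Genes past the threshold numbered 0 between the guides in each setting. Between the days the 3 became 0 without a filter, without a trend, with quantile normalization, with either other pseudocount (0.1 or 5), with the replicate block and with any library left out, and 7 and 9 with voom on whole reads of all and of nuclear genes. Voom and the nuclear scaling were chosen after seeing the data, and the test of the VTRNA1-3 share was not planned. Taking the unit of 1 read from the vault genes' own steps gave 32 and 36 reads of VTRNA1-3 and 1 of VTRNA2-1 in the day 3 libraries, since their values there share a common factor. The listed length equals the gene span, so that alternative gave the same reads. VTRNA2-1 had 2 to 7 reads in a library and VTRNA1-1 at most 1, so their changes rest on few reads. What kept these counts low was not tested.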

Other observations

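Of 37 other RNA polymerase III transcripts searched for, 7 were listed, all of them at lower levels than VTRNA1-3. RN7SK, RMRP and RNY5 were among those not listed, so their levels are not known here. RN7SL1, an RNA of the signal recognition particle, had 11 and 9 reads with the SNHG26 guides and 7 and 6 with control guides, at 268, 197, 188 and 135 TPM. Both libraries with SNHG26 guides lay above both control libraries, as for 16.1% of the 8274 genes tested, with a log2 change of 0.53 (SE 0.28) and a limma adjusted p of 0.935. RN7SL2, a near-identical copy, had 12, 7, 11 and 14 reads in the same order and a log2 change of -0.52 (SE 0.36), and reads can be shared between the 2 genes. RPPH1, the RNA of RNase P, had 10 and 4 reads with the SNHG26 guides and 6 and 3 with control guides, so both day 3 libraries lay below both day 2 libraries, as for 18.4% of all genes tested. Its log2 change between the days was -1.36 (SE 0.29), with a limma adjusted p of 0.449.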
